A study of Mus musculus with 4 samples.

Results

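The genes examined here are 36 genes of cholesterol synthesis and of its control by the sterol regulatory element-binding proteins (SREBPs), drawn from the 26322 genes listed for 4 libraries of MC38 mouse colon carcinoma cells. They were taken by gene symbol from a list of the pathway, with no threshold on a measured value, and all 36 were present. The list was drawn up with earlier results of these data known. By role they comprised 5 SREBP regulators, 7 mevalonate enzymes, 11 squalene and sterol enzymes, 8 fatty acid enzymes and 5 genes of sterol transport and efflux. The cells had been electroporated with Cas9 and an sgRNA, either a non-targeting guide (sgNT, labelled WT) or a guide against Cbfb (sgCbfb, labelled CbfbKO), and were otherwise the same line, untreated and grown for at least a week before RNA was extracted. Each group was sequenced as 2 libraries, since the remaining replicate of each was set aside for poor RNA. A single guide to Cbfb was used, and neither the labels nor the study's methods describe single-cell clones of the edited cells. The comparison asks which transcripts of the pathway differ when the tumour cells lose CBFβ, the partner subunit of the RUNX transcription factors.

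Cholesterol is built from acetyl-CoA. The mevalonate enzymes make the isoprenoid farnesyl diphosphate, squalene synthase joins it into squalene, and the sterol enzymes oxidise and cyclise squalene and then trim lanosterol to cholesterol. SREBP-2, from Srebf2, drives these genes and SREBP-1, from Srebf1, leans towards fatty acid synthesis. Both are held in the endoplasmic reticulum with their escort SCAP by INSIG proteins while sterols are plentiful, and are carried to the Golgi and cleaved when sterols fall. The control is therefore largely post-translational and shows in RNA mainly through the target genes, which in cells starved of sterol rise as a block.

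SREBPs bind short elements beside sites for NF-Y, whose core is CCAAT, and Sp1, whose core is the GC box. The 250 bases before the start site were read from RefSeq (GRCm38.p6) for 28 of the 36 genes. The genes without an entry were Fads1, Fdft1, Fdps, Npc1, Scd1, Scd2, Sqle and Stard4. CCAAT on either strand was in at least 1 such window of 14 of the 15 mevalonate, squalene and sterol enzymes, Acat2 being the exception. Of 5 fatty acid enzymes 1 had it, Fasn. Pmvk and Dhcr7 held it in only some of their windows. The only Acaca window, chr11:84195188-84195437, lies inside the gene as GENCODE places it, chr11:84129672-84401651. Over all 28 genes the share was 71.4%, against 41.3% of 9324 tested genes with an entry. Counted by window, 58.3% of the 36 windows of these genes held it, against 33.8% of all 32851. The sterol element searched, written TCACNCCAC and read on both strands, was in a single gene, Hmgcs1, and in 1.05% of all windows. GGGCGG, the GC box, was in 23 of the 28 genes (82.1%), against 65.1% of tested genes, and in 72.2% of their windows, against 58.4% of those of tested genes and 32.7% of all windows. CCAAT and its complement can overlap each other, as in Fasn, and each such copy was counted. A match of letters is a description of the window and not evidence of binding, which was not measured. The following windows are shown because they carry the sterol element (Hmgcs1), the most CCAAT copies of any of the 28 genes (Mvk), and the only CCAAT copies among the fatty acid enzymes (Fasn), and because Ebp had the smallest p in the comparison below among the genes with a window. Capitals mark CCAAT or its complement ATTGG and the sterol element.

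Hmgcs1, chr13:119690101-119690350, plus strand: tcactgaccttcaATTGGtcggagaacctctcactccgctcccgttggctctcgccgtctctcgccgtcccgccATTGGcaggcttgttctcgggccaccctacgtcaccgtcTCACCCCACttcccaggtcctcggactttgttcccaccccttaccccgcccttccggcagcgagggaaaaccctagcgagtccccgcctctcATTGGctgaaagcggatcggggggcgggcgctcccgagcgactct
Mvk, chr5:114444019-114444268, plus strand: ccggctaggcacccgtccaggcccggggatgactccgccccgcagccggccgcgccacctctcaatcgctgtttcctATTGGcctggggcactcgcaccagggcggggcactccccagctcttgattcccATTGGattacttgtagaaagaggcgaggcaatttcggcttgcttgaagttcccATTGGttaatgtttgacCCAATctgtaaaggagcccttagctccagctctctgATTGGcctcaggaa
Ebp, chrX:8193513-8193762, minus strand: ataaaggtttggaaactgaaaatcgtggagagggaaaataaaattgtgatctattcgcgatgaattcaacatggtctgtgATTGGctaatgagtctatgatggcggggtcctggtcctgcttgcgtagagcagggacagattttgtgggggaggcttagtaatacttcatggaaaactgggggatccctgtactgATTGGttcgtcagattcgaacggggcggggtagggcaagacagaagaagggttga
Fasn, chr11:120824548-120824797, minus strand: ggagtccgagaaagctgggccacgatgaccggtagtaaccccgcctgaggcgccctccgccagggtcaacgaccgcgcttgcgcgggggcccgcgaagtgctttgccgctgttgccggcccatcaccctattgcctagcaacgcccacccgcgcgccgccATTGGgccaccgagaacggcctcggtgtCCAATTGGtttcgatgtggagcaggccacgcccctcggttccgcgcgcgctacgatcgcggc

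In Hmgcs1 the sterol element began at -137, counted back from the RefSeq start site, and CCAAT copies at -237, -176 and -45. Mvk held 5 CCAAT copies, beginning between -173 and -14. In Ebp they began at -170 and -55. Fasn had them at -90, -62 and -59, and the latter pair overlap.

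Libraries held 3189035 to 3907936 reads assigned to genes, so that 1 read was worth 0.256 to 0.314 CPM, the count scaled to a common library total. Cbfb had 295 and 285 reads in sgNT and 125 and 125 in sgCbfb, a log2 fold change of -1.27 (SE 0.12, limma adjusted p = 1.76e-07), or 41.5% of the sgNT level. Without the first sgCbfb library it was at -1.12 (limma adjusted p = 0.267) and without the second at -1.41 (limma adjusted p = 0.193), and no gene at all was called in either case. The labels call the line colorectal cancer. Of 10 markers of colon epithelium 4 had no read in any library and all 10 had under 5 in each, summing to 5 to 7 reads per library. Of 5 fibroblast markers the summed level was 71.0 and 64.8 CPM in sgNT and 76.3 and 81.5 CPM in sgCbfb, with none past the test, and those of leukocytes and endothelium summed to 0 to 2 reads. Whether the small difference in fibroblast markers bears on the values below was not tested. In these bulk samples fewer cells expressing a gene and less RNA per cell cannot be told apart. The labels do not say whether replicates were separate cultures, so p-values measure only the spread between these libraries. An exact permutation test of 2 against 2 libraries cannot go below 0.333, and each test given here is limma's, two-sided, with Benjamini-Hochberg adjustment over 12207 genes unless an alternative with another filter is named.

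At a limma adjusted p under 0.05, 1 of the 35 tested genes was called higher in sgCbfb cells and none lower. The riser was Scd2, a stearoyl-CoA desaturase, which makes monounsaturated fatty acids rather than sterols. The filter on low values asked for 2 or more libraries at a log2 CPM of 0 or above and left 35 genes, because Tm7sf2, a sterol reductase, had 1, 1, 0 and 0 reads. The 1 of 35 (2.86%) compares with 2.83% of all tested genes called in either direction, 1.57% higher and 1.25% lower, so the share called was close to the background. At an unadjusted p under 0.05 there were 8 higher genes and 2 lower ones, where 9.67% and 5.23% of all tested genes passed. By voom on the recovered reads 1 of 35 was called, again Scd2 and none lower, against a background of 3.72%.

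Most log2 fold changes were small and positive. Their median was 0.16 over the 35 genes, with a range of -0.46 to 0.59, and 0.04 over all tested genes. It was positive in 29 of the 35 (82.9%) and in 57.0% of all tested genes. Both sgCbfb libraries lay above both sgNT libraries in 19 genes (54.3%, against 27.4% of all tested genes), and below them in 1, Sqle (2.86%, against 16.8%), while 15 overlapped. The spread between replicates was of the same order. The median standard error was 0.14 on the log2 scale, and 0.19 over all tested genes. For 32 of 35 genes the 95% confidence interval reached less than 0.5 to either side, against 7383 of 12207 tested genes. The shares over all tested genes were not matched for this precision. The median was 0.09 without the first sgNT library, with 24 genes positive, and 0.20 without the second, with 31 positive.

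**Figure D1:**
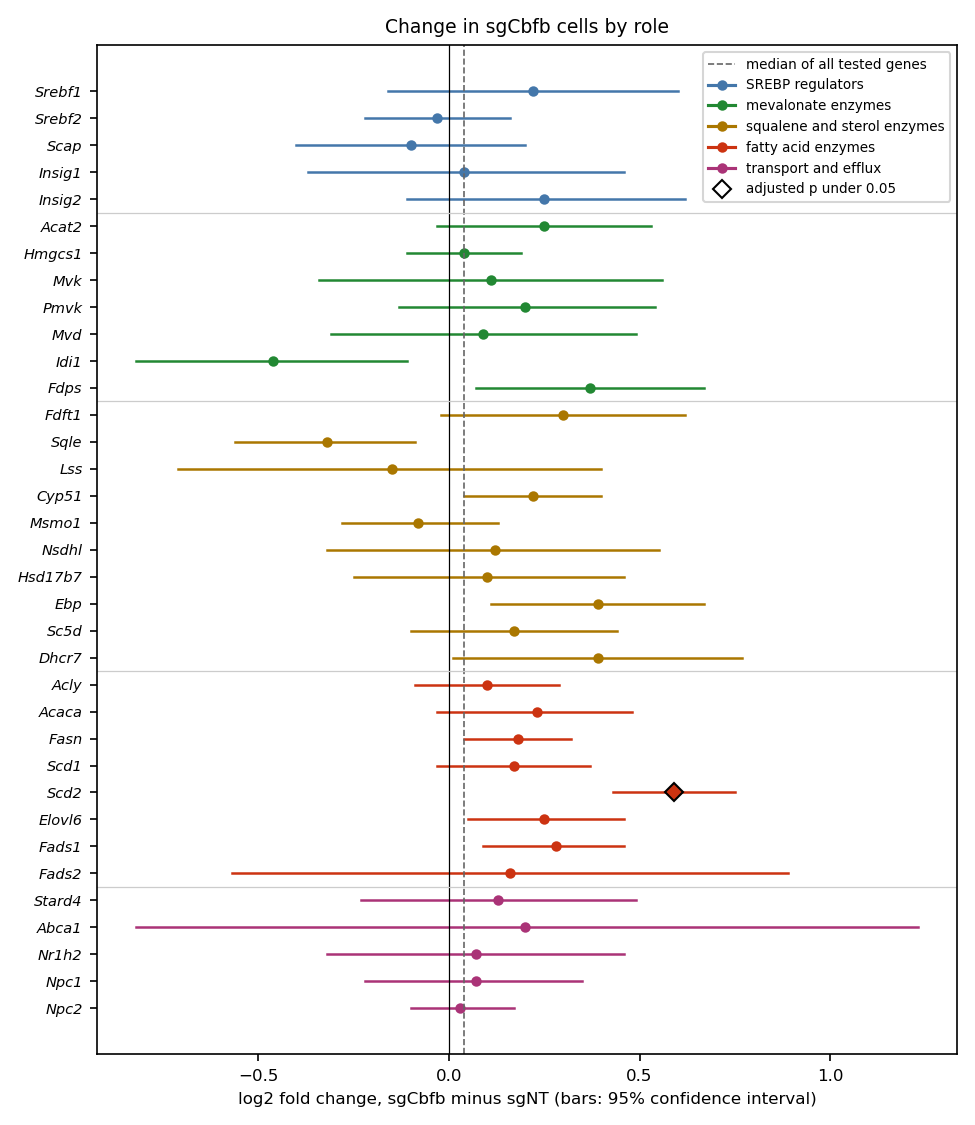
Log2 fold change of each tested gene, sgCbfb minus sgNT, with its 95% confidence interval from limma as a bar, coloured by role. The diamond is Scd2 (0.59), the 1 gene past an adjusted p of 0.05, and the dashed line is the median of all tested genes (0.04); Idi1 (-0.46) and Sqle (-0.32) lie farthest to the left.

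None of the 5 SREBP regulators passed the test. Srebf2, which encodes the main activator of the sterol genes, had 137 and 139 CPM in sgNT and 123 and 149 CPM in sgCbfb. Its sgNT values fell between the sgCbfb values, and the log2 fold change was -0.03 (SE 0.091, limma adjusted p = 0.925). The interval of -0.22 to 0.16 bounds any difference in Srebf2. Srebf1 had 22.1 and 29.4 CPM in sgNT and 25.1 and 35.4 CPM in sgCbfb. The groups overlapped (0.22, SE 0.18, limma adjusted p = 0.638), and the second library of each was the higher. Scap, the escort, had 44.5 and 56.7 CPM in sgNT and 54.5 and 40.1 CPM in sgCbfb, at -0.10 (SE 0.15, limma adjusted p = 0.82). Insig1, the retention factor that is itself an SREBP target, had 16.8 and 24.6 CPM in sgNT and 19.7 and 22.3 CPM in sgCbfb. Both sgCbfb values of Insig1 lay inside the sgNT range, with a log2 fold change of 0.04 (SE 0.2, limma adjusted p = 0.953). Insig2, its relative, had 19.7 and 25.5 CPM in sgNT and 25.6 and 28.2 CPM in sgCbfb. The groups of Insig2 were separate by a narrow margin (0.25, SE 0.18, limma adjusted p = 0.554). The 5 genes' summed level was 240.3 and 275.3 CPM in sgNT and 248.2 and 274.7 CPM in sgCbfb. Their median log2 fold change of 0.04 became negative without the first sgNT library (-0.04) and without the second sgCbfb library (-0.02), and was 0.31 without the second sgNT library and 0.13 without the first sgCbfb library.

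**Figure D2:**
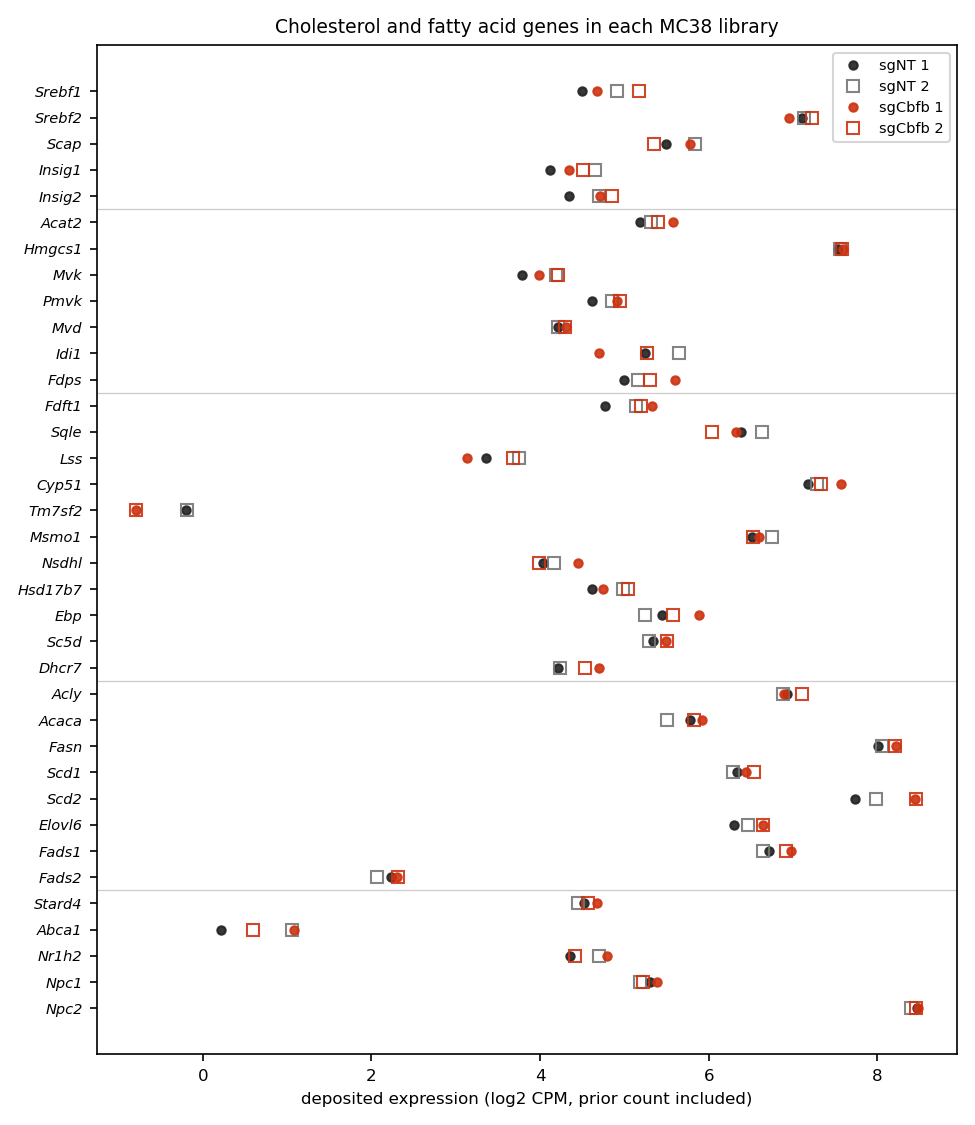
Deposited log2 CPM of each of the 36 genes in the 4 libraries, with sgNT in black and grey, sgCbfb in red, first libraries as filled circles and second ones as open squares; grey lines separate the roles. Both sgCbfb values of Scd2 lie clear of both sgNT values, whereas for the SREBP regulators the groups interleave except for Insig2.

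The mevalonate enzymes were also below the threshold, with 6 of 7 positive and a median log2 fold change of 0.11. That median was 0.31 without the second sgNT library, and between 0.08 and 0.16 when any other single library was left out. Their summed level was 343.3 and 376.3 CPM in sgNT and 376.2 and 376.9 CPM in sgCbfb, so the second sgNT library was level with both sgCbfb libraries. Hmgcs1, the synthase that makes HMG-CoA, had 184 and 189 CPM in sgNT and 192 and 191 CPM in sgCbfb. With 609 to 750 reads per library it was among the more precisely measured, at 0.04 with an interval of -0.11 to 0.19. Acat2, which condenses acetyl-CoA, was at 0.25, and the kinases Mvk and Pmvk and the decarboxylase Mvd were at 0.11, 0.20 and 0.09. The positive and negative extremes of this group were consecutive enzymes. Both also shared part of their 3′ ends with predicted genes, as given below, which makes their values less certain. Fdps, farnesyl diphosphate synthase, had 31.5 and 35.1 CPM in sgNT and 47.9 and 38.9 CPM in sgCbfb. The groups of Fdps did not overlap, but the difference of 0.37 (SE 0.14) did not pass (limma adjusted p = 0.2). Idi1, the isopentenyl diphosphate isomerase that supplies it (chr13:8885501-8892451, plus strand), had 37.1 and 49.8 CPM in sgNT and 25.3 and 37.9 CPM in sgCbfb. The second sgCbfb library exceeded the first sgNT library for Idi1, and the log2 fold change was -0.46 (SE 0.17, 95% interval -0.82 to -0.11, limma adjusted p = 0.176). Leaving out 1 library moved it between -0.75 and -0.18.

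The squalene and sterol enzymes went both ways, with 7 of the 10 tested positive, 3 negative, none past the test and a median of 0.14. The median was 0.09 without the first sgNT library, 0.22 without the second, 0.15 without the first sgCbfb library and 0.25 without the second. Squalene epoxidase, Sqle, adds the first oxygen and is a rate-limiting step of the pathway (chr15:59315077-59331192, plus strand). It had 82.4 and 98.3 CPM in sgNT and 79.3 and 65.2 CPM in sgCbfb. Both sgCbfb values of Sqle were below both sgNT values, at -0.32 (SE 0.11, 95% interval -0.56 to -0.09, limma adjusted p = 0.15). Lss, lanosterol synthase, which follows it, had 9.72 and 12.9 CPM in sgNT and 8.19 and 12.2 CPM in sgCbfb. With 32 to 43 reads per library the value of Lss, -0.15 (SE 0.27, limma adjusted p = 0.859), was loosely bounded. Ebp, the sterol isomerase (chrX:8185329-8193512, minus strand), had 43.0 and 37.2 CPM in sgNT and 58.6 and 47.3 CPM in sgCbfb. The groups of Ebp were apart, at 0.39 (SE 0.14, 95% interval 0.11 to 0.67, limma adjusted p = 0.139). Dhcr7, the reductase of the last step of one branch, had 18.0 and 18.3 CPM in sgNT and 25.3 and 22.6 CPM in sgCbfb, at 0.39 (SE 0.18, limma adjusted p = 0.319). Both sgNT libraries had 61 reads of Dhcr7 and the sgCbfb libraries 99 and 72. Of the rest, squalene synthase Fdft1 was at 0.30, the demethylase Cyp51 at 0.22, the desaturase Sc5d at 0.17, the dehydrogenase Nsdhl at 0.12, the ketosteroid reductase Hsd17b7 at 0.10 and the methyl oxidase Msmo1 at -0.08. The summed level of the group was 495.0 and 550.8 CPM in sgNT and 587.5 and 527.1 CPM in sgCbfb, and these ranges overlapped.

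The sterol enzymes differed between the sgNT replicates as much as between the groups. In the second sgNT library 15 of the 17 tested mevalonate, squalene and sterol enzymes exceeded the first (88.2%, median difference 0.15 in log2 CPM), where 52.5% of all tested genes did. All 5 regulators were likewise higher there, by a median of 0.36. Among the fatty acid enzymes 3 of 8 were higher, with a median of -0.05. Between the sgCbfb libraries the first exceeded the second in 11 of the same 17 enzymes (64.7%, median difference 0.07), in 1 of the 5 regulators (median -0.17) and in 3 of the 8 fatty acid enzymes (median -0.01), where 54.6% of all tested genes did. Over all 35 genes the second sgNT library was the higher in 25 (71.4%) and the first sgCbfb library in 20 (57.1%). The median log2 fold change of these 17 sterol genes between groups was 0.12, with 13 positive. In 10 of them both sgCbfb libraries lay above both sgNT libraries (58.8%, against 27.4% of all tested genes). In 1 both lay below (5.88%, against 16.8%). These replicate differences rest on 1 pair of libraries each and were given no test.

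**Figure D3:**
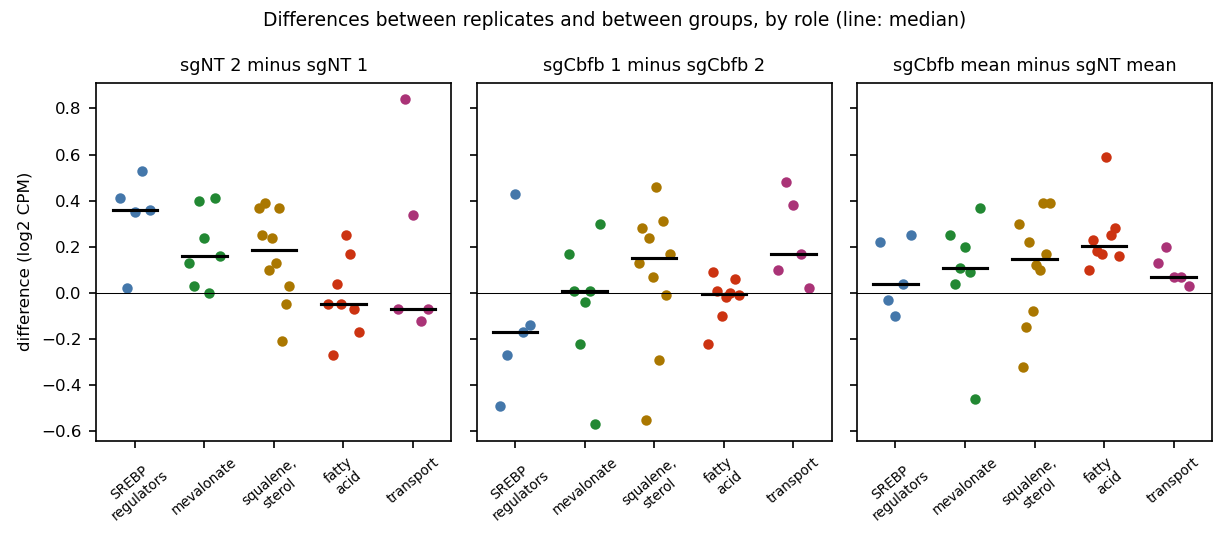
Differences in log2 CPM for each tested gene by role, between the sgNT libraries (left), between the sgCbfb libraries (middle) and between the group means (right), with black lines at the medians. The regulators' median is 0.36 between the sgNT libraries and 0.04 between groups, while that of the fatty acid enzymes is -0.05 and 0.21.

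The fatty acid enzymes were positive in 8 of 8, with a median log2 fold change of 0.21, and in 7 of the 8 both sgCbfb libraries lay above both sgNT libraries, where 57.0% of all tested genes were positive and 27.4% lay above. Of the 10 tested fatty acid and glycerolipid enzymes of the further list described below, 8 were positive and 3 lay above. The summed level of the 8 genes was 912.8 and 948.1 CPM in sgNT and 1136 and 1157 CPM in sgCbfb. Of these sums Scd2 alone made up 212 and 253 CPM in sgNT and 346 and 352 CPM in sgCbfb. The group's values were 8 of 8 positive in each alternative that tested all 8 except without the second sgCbfb library, where 7 were. Its median ran from 0.17 to 0.22 in the alternatives that tested all 8. With a minimum of 5 CPM, which tested 7, it was 0.23. Only Scd2 passed the test, and the other 7 are given by their values. Scd2 (chr19:44293674-44306864, plus strand) had 721 and 843 reads in sgNT and 1353 and 1121 in sgCbfb, or 212, 253, 346 and 352 CPM. The sgCbfb values lay close to each other and above both sgNT values. The means were 233 ± 28.6 CPM (SD, n = 2) in sgNT and 349 ± 3.75 CPM (SD, n = 2) in sgCbfb. The log2 fold change was 0.59 (SE 0.076, 95% interval 0.43 to 0.75, limma adjusted p = 1.68e-05), or 150% of the sgNT level, and Scd2 ranked 48 by p among 12207 genes. It was positive in all 12 alternatives, between 0.46 and 0.72, with adjusted p from 2.19e-12 to 0.542. The call was lost in 5 of the 12, including without either sgCbfb library, at 0.60 (limma adjusted p = 0.525) without the first and 0.58 (limma adjusted p = 0.511) without the second. Those fits keep 1 sgCbfb library, which is assumed to vary as the sgNT pair does.

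Scd1, the neighbouring desaturase (chr19:44394455-44407879, minus strand), had 80.7 and 77.7 CPM in sgNT and 86.0 and 92.2 CPM in sgCbfb. Its groups did not overlap either, but the difference was smaller, at 0.17 (SE 0.098, 95% interval -0.03 to 0.37, limma adjusted p = 0.455). Of the reads of both genes together, Scd2 took 72.5% and 76.5% in sgNT and 80.1% and 79.2% in sgCbfb, and the difference between the genes was not tested. The remaining paralogues had few reads, with 2, 1, 2 and 0 for Scd3 and 3, 0, 0 and 0 for Scd4.

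The other fatty acid enzymes lay close together. Fasn, the synthase that makes palmitate, had 258 and 264 CPM in sgNT and 297 and 295 CPM in sgCbfb, at 0.18 (SE 0.067, limma adjusted p = 0.174). Fads1, the delta-5 desaturase, had 104 and 99.2 CPM in sgNT and 126 and 120 CPM in sgCbfb, at 0.28 (SE 0.088, limma adjusted p = 0.102). For Fasn and Fads1 the gap between the groups was wider than that between the replicates of either group, yet neither passed over all genes, nor did the elongase Elovl6 (0.25). Acaca, which makes malonyl-CoA, was at 0.23, Acly, which supplies cytosolic acetyl-CoA, at 0.10, and Fads2, the delta-6 desaturase, at 0.16 on 12 to 17 reads per library.

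**Figure D4:**
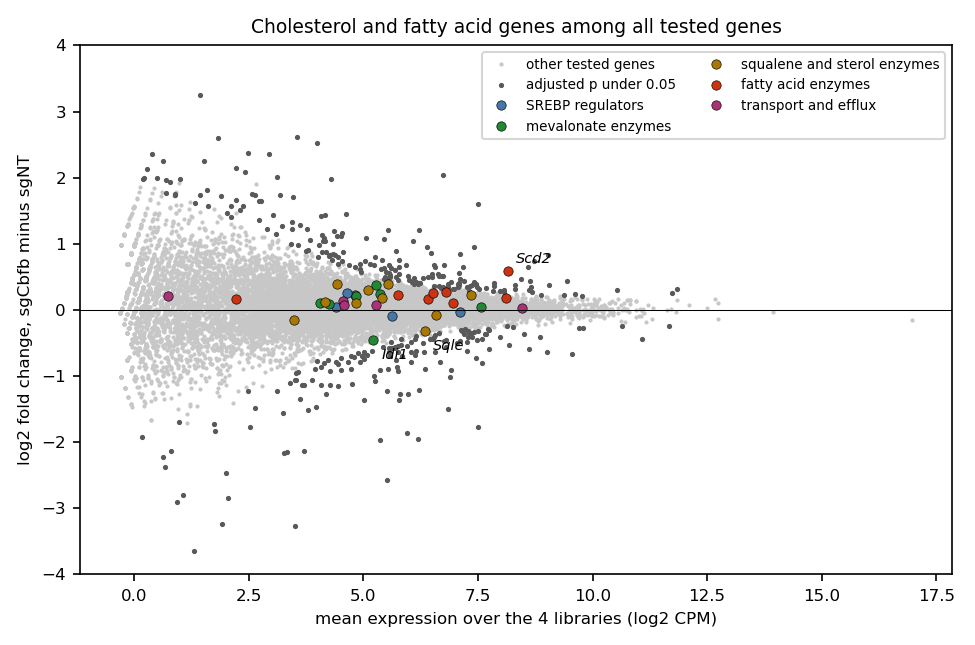
Log2 fold change (sgCbfb minus sgNT) against mean log2 CPM for all 12207 tested genes, with genes past an adjusted p of 0.05 in dark grey and the 35 genes coloured by role. Scd2 is the 1 coloured point among the called genes, at 0.59, and the others lie within the grey cloud between -0.46 and 0.39.

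None of the 5 transport and efflux genes passed the test, and their median log2 fold change was 0.07. Npc2, which carries cholesterol inside lysosomes, had 355 and 336 CPM in sgNT and 356 and 351 CPM in sgCbfb. With 1120 to 1391 reads per library its log2 fold change was 0.03, with an interval of -0.10 to 0.17. Its membrane partner Npc1 was at 0.07, the sterol carrier Stard4 at 0.13 and the oxysterol receptor Nr1h2 (LXRβ) at 0.07. Abca1, the efflux pump that LXR induces, had 2, 5, 6 and 3 reads, too few to show a difference at this depth (0.20, interval -0.82 to 1.23). All 5 values were positive, but the group's median turned negative (-0.02) without the first sgCbfb library and was 0.18 without the second.

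A further 38 genes of the same pathways were fixed as a list, and 34 passed the filter. Of these 1 was called higher (2.94%, close to the 2.83% of all tested genes) and none lower. The median log2 fold change was 0.12, with 25 positive (73.5%, against 57.0%). At an unadjusted p under 0.05 limma gave 6 higher and 1 lower, where 9.67% and 5.23% of all tested genes passed, and voom called 2 (5.88%, against 3.72%), Rnf145 and Vldlr, with none lower. The gene called higher by limma was Rnf145, a sterol-responsive ubiquitin ligase of the endoplasmic reticulum (chr11:44518964-44565520, plus strand). It had 45.6 and 49.2 CPM in sgNT and 82.9 and 70.6 CPM in sgCbfb. The groups were well apart for Rnf145, at 0.68 (SE 0.12, 95% interval 0.44 to 0.93, limma adjusted p = 0.000654), or 161% of the sgNT level. The call of Rnf145 was also lost without either sgCbfb library (adjusted p = 0.525 without the first and 0.396 without the second), at 0.57 and 0.80. Vldlr, a lipoprotein receptor, and Acacb, the mitochondria-associated acetyl-CoA carboxylase, were nearest the threshold and are named after their values were seen. Vldlr was at 0.50 (limma adjusted p = 0.0529, and 0.0362 by voom), with 29.4 and 34.5 CPM in sgNT and 43.8 and 47.0 CPM in sgCbfb, and Acacb at 1.17 (limma adjusted p = 0.0726) on 10, 10, 36 and 19 reads.

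The libraries count 3′ ends, so the last 500 bases of each transcript were compared with all other annotated genes in words of 75 bases. For 30 of the 36 genes, Scd1 and Scd2 included, no word was shared with another gene in the same sense. Idi1 shared 40.6% of its words with 4 predicted genes, among them Gm13502, and Fdps shared 64.0% with predicted genes that include Gm3571. Acat2 shared 16.3% with Acat3, Tm7sf2 9.95% with Vps51 and Elovl6 4.39%, and Acaca shared words with Gm5182, at a share between those of Idi1 and Acat2. The values of these 6 genes are uncertain to that extent, since reads could be divided or dropped. Antisense overlap touched 7 genes, and as the use of strand in counting is not given in the sources used here, reads from the shared stretch cannot be told from those of the partner. For Srebf1, Scap, Lss and Acat2 the shared words were 4.11% to 16.3% of the total. The overlap was complete for Fdft1, whose end lies within exons of Ctsb (0.16, limma adjusted p = 0.411), and was 21.6% for Cyp51 with Akap9 (0.27, limma adjusted p = 0.0717) and 28.4% for Npc1 with Rmc1.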

How the data were processed

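RNA of MC38 cells was made into 3′ mRNA libraries (2 sgNT, 2 sgCbfb). The submitters' processing notes name cutadapt 1.9, HISAT2 2.1.0 and featureCounts 2.0.1 with GRCm38/mm10. The authors deposited log2 CPM for 26322 genes, to which 2 reads, scaled by library size, had been added before the log, so that changes of low genes are understated. Whole reads were recovered from the deposited log2 values (at least 99.992% within 0.1 of a whole number), and the reads and CPM printed here come from them. limma 3.58.1 in R 4.3.3 (lmFit, eBayes with a mean-variance trend) was fitted to the deposited log2 CPM of 12207 genes (log2 CPM of 0 or above in 2 or more libraries), two-sided, at a Benjamini-Hochberg adjusted p of 0.05. The study's methods name voom with limma, which needs counts, so voom on the recovered reads was 1 of 12 alternatives. The others were median centring, quantile normalization, no trend, a 1 CPM pseudocount, no filter, a minimum of 5 CPM, a replicate block, and leaving out each library. Tested on simulated data, the fit found 135 of 200 genes changed by 1 on the log2 scale, with 0 false calls. The changed genes were drawn from the better counted ones, and every gene was given the same fixed variability. Smaller changes, such as those of the pathway genes, were not simulated, so the counts do not carry over to them. Replicates differed beyond counting noise (chi-square per degree of freedom 1.584 and 2.154 over 9520 genes). The genes and lists were chosen with earlier results of these data known. Genes given in full were those past the threshold, the 5 regulators, and the 3 largest differences in each direction not past it; further pathway genes were named where past it, with Vldlr and Acacb added after their values were seen, and genes of that list which the rule also named are not reported here. Some other genes are given in brief. Positions are from GENCODE M21 (GRCm38).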

Additional observations from a re-analysis of the deposited data

How the results depend on the processing

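Over the 12 alternatives, Scd2 and Rnf145 each lost their call in 5 and Cbfb in 4, while Idi1 gained one in 1, Vldlr in 4, Acacb in 2 and Akap9 in 3, and none of these changed sign. The number of pathway genes called higher, 1 by the test used, was 0 under quantile normalization, no trend and no filter, and 0 to 1 when 1 library was left out. The number called lower, otherwise 0, was 1 without the filter (Tm7sf2, on 1 read against 0) and 1 with a replicate block (Idi1, limma adjusted p = 0.0417, with a range over its alternatives of 0.0417 to 1). Scd2 was at 0.56 (adjusted p = 0.0638) under quantile normalization, 0.59 (0.294) with no trend and 0.59 (0.542) with no filter, against 0.59, so the difference itself moved little. For the further list, 1 called higher became 0 under quantile normalization, no trend and no filter, 2 by voom and with a 1 CPM pseudocount, 3 with a minimum of 5 CPM and 3 with the replicate block, and 0 to 1 with 1 library left out. Over all genes, 192 higher became 39 under quantile normalization, 0 with no trend (1461 in either direction at an unadjusted p under 0.05), 2 with no filter, 300 with a minimum of 5 CPM, 320 with the replicate block and 0 to 115 with 1 library left out, and 153 lower became 44, 0 and 53 under the first 3 of these and 0 to 86 with 1 library left out. Neither sgCbfb library could be left out without the loss of all calls, at 1104 and 1169 genes with an unadjusted p under 0.05; the fitted prior degrees of freedom were 3.04 without the first, against 21.2 with all 4. The cause of these changes was not tested. Replicate numbers are shared between groups in the labels, but nothing states what a number stands for, and libraries with the same number showed no common deviation from their group means (correlation -0.00417 over 12207 genes). The replicate block, which called 4.38% of all tested genes, therefore rests on the number alone. The median of the pathway genes was 0.10 to 0.17 under the scaling and filter alternatives (0.003 for all genes under quantile normalization) and 0.09 to 0.20 with 1 library left out. At 1 read per 0.256 to 0.314 CPM, genes such as Abca1 and Tm7sf2 cannot be compared.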
